A study of Mus musculus with 4 samples.

Results

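The genes described here are the 47 subunits of glutamate receptors and of GABA-A and GABA-B receptors among the 31053 genes of the count tables, chosen by their symbols and not by their values. They are the 4 AMPA subunits (Gria1 to Gria4), 5 kainate subunits (Grik1 to Grik5), 7 NMDA subunits (Grin1, Grin2a to Grin2d, Grin3a and Grin3b), 2 delta subunits, 8 metabotropic glutamate receptors, 19 GABA-A subunits and 2 GABA-B subunits (Gabbr1 and Gabbr2). Each was followed across neuron and glial types, the 2 region labels and the 2 AAV labels. AMPA, kainate and NMDA receptors are glutamate-gated cation channels assembled from 4 subunits, and the choice of subunits sets their kinetics, calcium permeability and magnesium block. GABA-A receptors are chloride channels of 5 subunits, most often alpha, beta and gamma, whereas metabotropic glutamate receptors and GABA-B receptors act through G proteins. Glial cells carry some of the same receptors, with which they respond to transmitter that leaves the synapse.

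The nuclei came from brains of male C57BL/6J mice of 8 weeks. By the study's methods an AAV (adeno-associated virus) vector had been injected at 4 weeks into the cisterna magna, which holds cerebrospinal fluid behind the brain stem. AAV-VEGF-C encoded full-length mouse VEGF-C, a growth factor for lymphatic vessels, and AAV-CTRL encoded a secreted fragment of VEGF receptor 3 fused to an immunoglobulin tail that cannot bind VEGF-C, so that all groups had received a virus. Each vector group was a pool of tissue from 5 mice, which gave 4 single-nucleus RNA-seq libraries, 1 for each region and vector. Both region labels of a vector share their mice, and a nucleus cannot be traced to its mouse.

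The libraries labelled cortex held 17168 nuclei under AAV-CTRL and 20370 under AAV-VEGF-C, those labelled striatum held 23724 and 17466 in the same order, and each library had 63165470 to 78332657 UMIs, that is, counted RNA molecules. Of the 78728 barcodes, 598 sequences occurred in 2 or more libraries. The region labels did not match the genes of striatal projection neurons. Ppp1r1b, which encodes the striatal phosphoprotein DARPP-32, was at 62.6 and 74.8 CPM (counts per 1e+06 UMIs) in the libraries labelled cortex and at 18.1 and 18.1 CPM in those labelled striatum, and Slc17a6, a glutamate transporter gene of thalamus and brain stem, was at 15.9 and 15.9 CPM against 144 and 172 CPM. The libraries are therefore called "labelled cortex" and "labelled striatum" throughout. Vegfc itself was at 12.2 and 12.9 CPM under AAV-CTRL and at 11.6 and 12.1 CPM under AAV-VEGF-C. With 1 library per group there was no test between groups: every interval below covers counting error alone, and 2 libraries of the same label are the nearest to a repeat that the series offers.

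Nuclei were clustered without the 47 receptor genes, and 61418 of 73058 kept nuclei fell into 35 types named from marker genes, each named for the cells its markers resemble and marked "-like" in the plots. In the text a name such as Sst interneurons stands for Sst interneuron-like nuclei. Levels are CPM within a type, that is, UMIs of a gene per 1e+06 UMIs of all nuclei of that type in 1 library with at least 50 such nuclei. The order of types for a gene covers the types with 100 or more UMIs of that gene over all libraries. Types such as the cortical layers and the Sst, Pvalb, Vip and Lamp5 or Ndnf interneurons reached 50 nuclei in the libraries labelled cortex and not in the others, and thalamic, habenula, subcortical glutamatergic and cerebellar granule neurons and non-telencephalic astrocytes reached it in those labelled striatum. Values are therefore given as a pair, AAV-CTRL first, or as 4 values, the label cortex before the label striatum and AAV-CTRL first within each. Neuroblasts and ependymal cells had values in 3 libraries, without striatum AAV-VEGF-C for the former and without cortex AAV-VEGF-C for the latter. Levels are not divided by gene length. Over the 47 genes the UMI total followed gene length (Spearman's rho = 0.805 across genes, which are not independent), so that levels of different genes are not ranked against each other.

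Of the 47 genes, 43 had at least 100 UMIs over all kept nuclei. The 4 below this were Grm6 with 11, Gabrp with 59, Gabrr3 with 69 and Gabrr1 with 78 UMIs. Grm6 is the glutamate receptor of retinal bipolar cells, and the rho subunits Gabrr1 and Gabrr3 are known mainly from retina. Grin3b with 302 and Gabre with 638 UMIs passed in total but had no type with 100 UMIs, and their order of types is not given. Of the 43 genes, 24 had a highest type at 4 or more times the median type. This is 55.8%, beside 47.2% of all 18985 genes with 100 UMIs, and the median ratio of highest to median type was 4.53 for receptor genes and 3.61 for all genes. Of 53 gene entries of receptor partners (auxiliary subunits, scaffolds and anchors), 26 met the same rule.

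**Figure D1:**
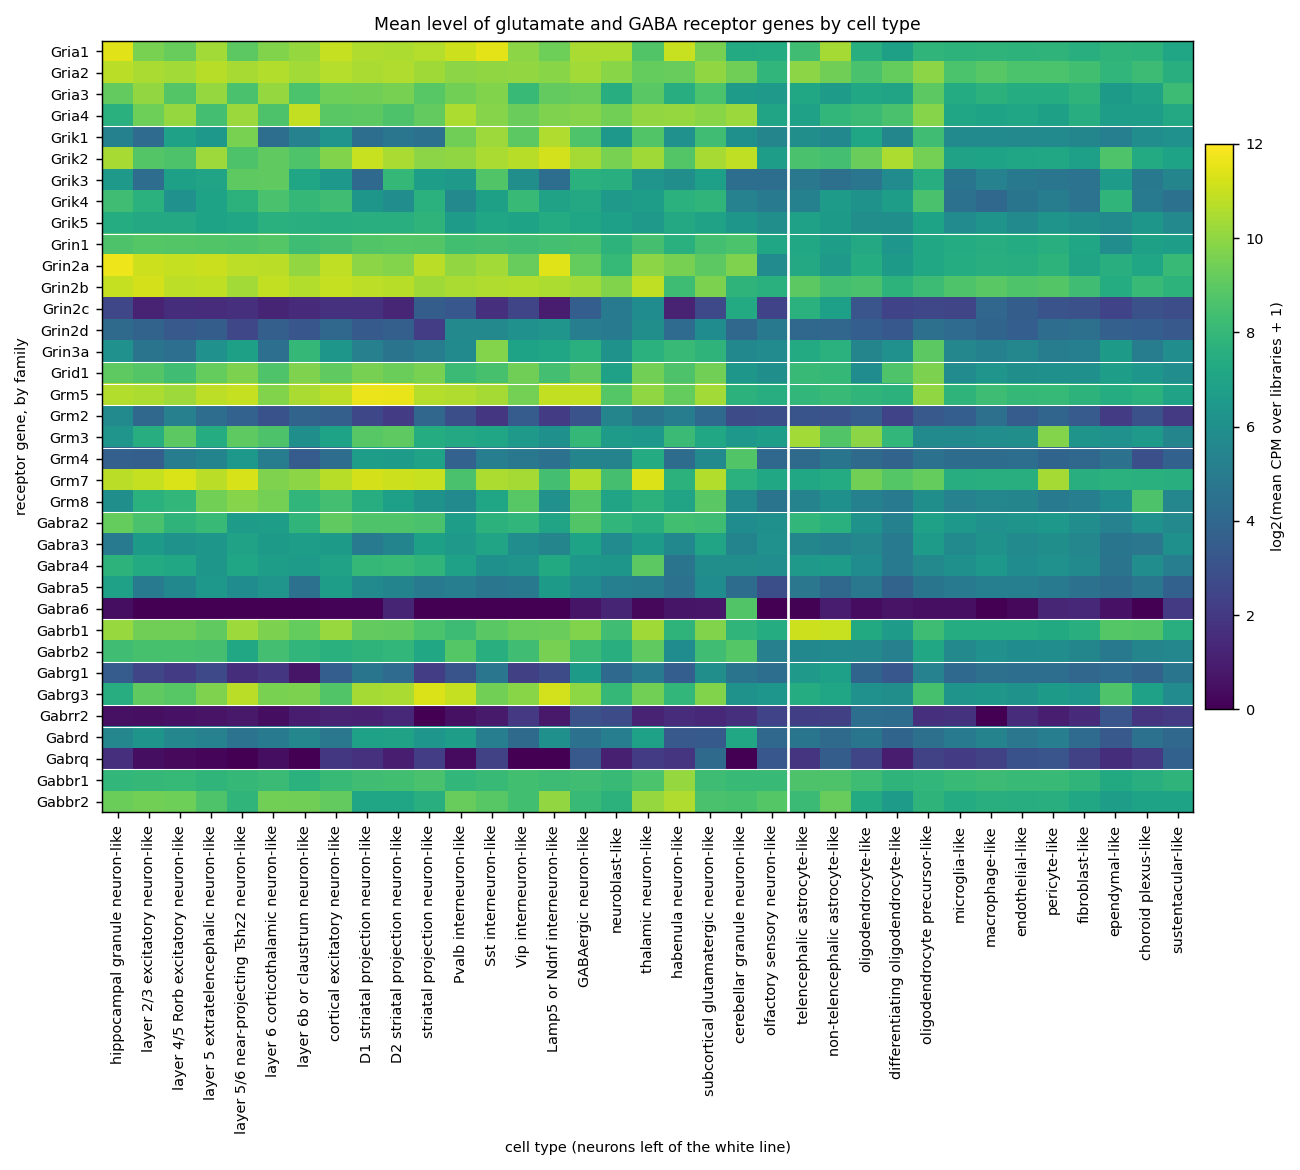
Mean level of the receptor genes (rows, by family) in the 35 types (columns, neurons left of the white line), as log2 of the mean CPM over libraries plus 1, for genes with 100 UMIs in at least 1 type, as far as reported. Gabra6 is bright in the cerebellar granule column alone, Grm3 and Gabrb1 are brightest in telencephalic astrocytes, and Grin1 differs little between neuron columns.

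The promoters of 3 genes are shown because these genes stand for 3 patterns over types. Gabra6 had 100 UMIs in 1 type, Grin2c was highest in astrocytes, and Gabbr1 had 100 UMIs in 34 of the 35 types. The 250 bases before the RefSeq start (build GRCm38.p6) are printed 5′ to 3′ on the gene's strand, with each CG dinucleotide in capitals, because CG content separates CpG island promoters from others.
Gabra6, chr11:42321073-42321322, minus strand: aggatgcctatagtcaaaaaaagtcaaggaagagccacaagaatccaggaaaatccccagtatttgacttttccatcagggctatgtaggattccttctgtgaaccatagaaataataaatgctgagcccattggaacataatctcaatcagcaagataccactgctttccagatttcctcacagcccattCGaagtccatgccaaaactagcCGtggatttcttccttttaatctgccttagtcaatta
Grin2c, chr11:115267244-115267493, minus strand: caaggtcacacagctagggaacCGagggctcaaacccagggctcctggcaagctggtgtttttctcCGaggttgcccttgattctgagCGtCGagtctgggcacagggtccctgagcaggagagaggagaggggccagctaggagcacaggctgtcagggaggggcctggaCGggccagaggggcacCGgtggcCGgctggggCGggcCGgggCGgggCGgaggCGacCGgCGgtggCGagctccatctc
Gabbr1, chr17:37045716-37045965, plus strand: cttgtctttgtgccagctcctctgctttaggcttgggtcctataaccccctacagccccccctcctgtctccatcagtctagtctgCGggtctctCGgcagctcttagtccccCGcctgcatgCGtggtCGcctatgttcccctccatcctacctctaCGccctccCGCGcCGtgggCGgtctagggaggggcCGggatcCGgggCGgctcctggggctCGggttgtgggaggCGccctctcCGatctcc
The Gabra6 window held 2 CG dinucleotides at 40.8% G and C, and 81.2% of the 32851 RefSeq promoters of the same length held as many or more. The Grin2c window held 15 at 68.8% and the Gabbr1 window 16 at 66.0%, numbers that 27.3% and 25.4% of promoters reached. The median promoter held 6. Grin2c and Gabbr1 thus had like numbers of CG dinucleotides and different patterns over types. RefSeq promoters were matched for 32 of the 47 genes.

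AMPA receptor subunits carry most fast excitatory transmission. Gria1 was highest in Sst interneurons at 2831 and 3010 CPM and in hippocampal granule neurons at 3025, 2849, 2619 and 2671 CPM, and these ranges overlapped. Pvalb interneurons at 2207 and 2100 CPM and habenula neurons at 1945 and 2068 CPM came next. Gria1 was lowest in differentiating oligodendrocytes, at 112.7 CPM on average. Gria2, whose edited subunit keeps AMPA receptors nearly impermeable to calcium, was the flattest of the 4, at 1709 CPM in hippocampal granule neurons against a median type of 948 CPM, and each type from the second to the eighth in its order overlapped the one above it. Gria3 was at 1080 and 1095 CPM in layer 6 corticothalamic neurons, 1076 and 1098 CPM in layer 5 extratelencephalic neurons and 1077 and 1078 CPM in layer 2/3 neurons, which did not differ beyond their spread, and the next type, Sst interneurons, lay below all of these at 862 and 824 CPM. Gria4, a subunit of fast-gating receptors, stood apart in layer 6b or claustrum neurons at 1939 and 1826 CPM, ahead of Pvalb interneurons at 1511 and 1433 CPM.

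The balance between 2 subunits in the same nuclei is free of the length of the genes when types are compared. The log2 ratio of Gria1 to Gria2 UMIs was 1.61 and 1.89 in habenula neurons, 1.45 and 1.59 in Sst interneurons and 1.18 and 1.12 in Pvalb interneurons. It was 0.73, 0.67, 0.68 and 0.76 in hippocampal granule neurons, where the 4 libraries lay close together. In cerebellar granule neurons it was −2.14 and −1.97 and in oligodendrocyte precursors −2.13, −2.01, −2.22 and −2.03, so that Gria2 exceeded Gria1 there. Gria4 to Gria2 ran from −3.76, −3.59, −2.56 and −2.89 in hippocampal granule neurons to 0.95 and 0.78 in habenula neurons and 0.93 and 0.82 in thalamic neurons. Astrocytes differed by class: Gria1 was at 1325 and 1319 CPM in non-telencephalic astrocytes and at 336, 299, 355 and 282 CPM in telencephalic ones, with no overlap, and the Gria1 to Gria2 ratio was 0.88 and 1.04 in the former and −1.64, −1.78, −1.39 and −1.49 in the latter. The order of ratios is shown in the plot of subunit balance.

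**Figure D2:**
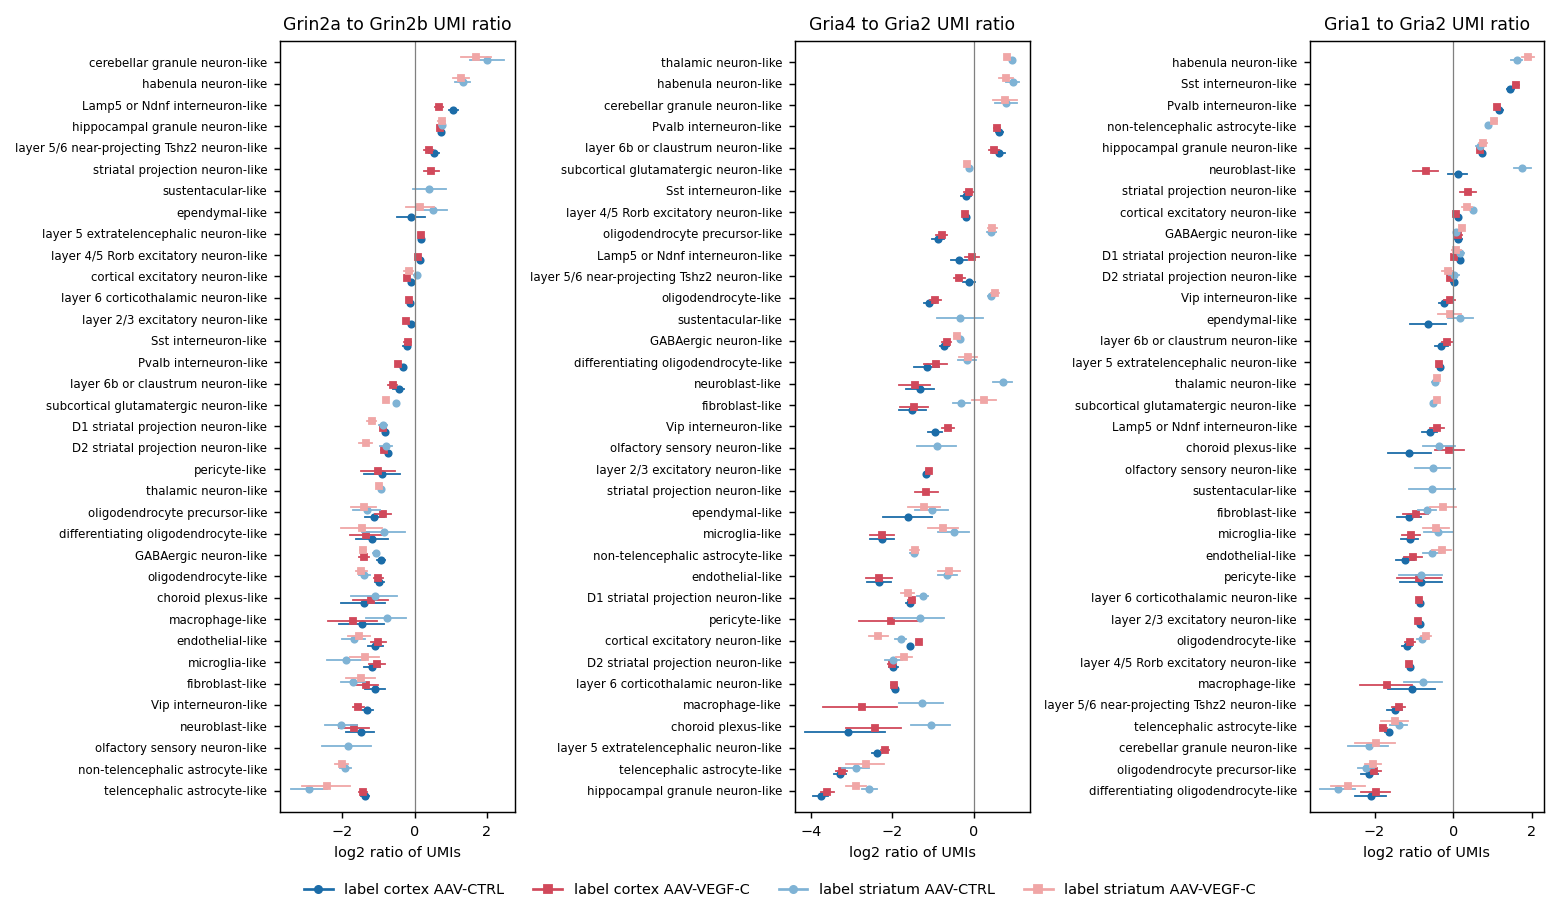
Log2 ratio of UMIs of 2 subunit genes (horizontal axes) in each type (vertical axes, ordered by mean), with 1 point per library and 95% counting intervals as bars. The Grin2a to Grin2b panel is led by cerebellar granule neurons (2.00 and 1.70), the Gria4 to Gria2 panel ends with hippocampal granule neurons (−3.76, −3.59, −2.56 and −2.89), and the Gria1 to Gria2 panel is led by habenula neurons.

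Kainate receptors act on both sides of the synapse. Grik1 was at 1519 and 1564 CPM in Lamp5 or Ndnf interneurons and at 1214 and 1197 CPM in Sst interneurons, then at 677 and 869 CPM in layer 5/6 near-projecting neurons and 711 and 632 CPM in Pvalb interneurons, which overlapped. In layer 2/3 neurons Grik1 was at 16.3 and 18.0 CPM, and its highest type was 25.3 times its median type. Grik2 was at 2215 and 2471 CPM in Lamp5 or Ndnf interneurons and overlapped D1 striatal projection neurons at 2014, 1963, 2312 and 1828 CPM. Striatal projection neurons thus had much Grik2 and little Grik1, with a log2 ratio of Grik1 to Grik2 of −6.81, −6.97, −7.10 and −6.15 in the D1 class, whereas near-projecting neurons had the highest ratio, at 0.74 and 1.13. Grik3 separated the 2 classes of striatal projection neurons: it was at 262, 288, 230 and 238 CPM in D2 neurons and at 22.1, 12.2, 7.48 and 22.7 CPM in D1 neurons, its lowest type with a count. Its highest type was the layer 6 corticothalamic neuron at 552 and 538 CPM.

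The high-affinity subunits Grik4 and Grik5 form receptors only together with Grik1 to Grik3. Grik4 was highest in oligodendrocyte precursors, the dividing glial progenitors, at 327, 370, 403 and 399 CPM, and overlapped layer 6 corticothalamic neurons at 386 and 355 CPM. Grik5 was even across neurons, at 223 CPM in the smaller group of striatal projection neurons (the library labelled cortex AAV-VEGF-C alone), 191 and 204 CPM in layer 6 corticothalamic neurons and 212, 209, 160 and 178 CPM in D2 neurons.

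NMDA receptors need the obligatory subunit Grin1 and detect coincident glutamate and depolarization. Grin1 had the smallest ratio of highest to median type among the receptor genes with values, at 1.46, with 456 and 471 CPM in layer 6 corticothalamic neurons and overlapping values in D2 neurons (465, 481, 450 and 417 CPM) and layer 2/3 neurons (456 and 444 CPM). Grin2a, the subunit of mature fast receptors, was highest in hippocampal granule neurons at 3410, 3357, 3030 and 3294 CPM, above all libraries of the next type, Lamp5 or Ndnf interneurons at 2990 and 2462 CPM. Grin2b, the subunit of slow and early receptors, was highest in layer 2/3 neurons at 2457 and 2407 CPM, above cortical excitatory neurons of other clusters at 2015, 1949, 1883 and 2060 CPM.

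The log2 ratio of Grin2a to Grin2b was 2.00 and 1.70 in cerebellar granule neurons, 1.33 and 1.28 in habenula neurons, 1.07 and 0.68 in Lamp5 or Ndnf interneurons and 0.73, 0.69, 0.75 and 0.76 in hippocampal granule neurons. It was −1.31 and −1.55 in Vip interneurons and −1.50, −1.68 and −2.03 in neuroblasts, the immature neurons of the sample. These 2 interneuron classes of the same libraries lay on opposite sides of 0. In telencephalic astrocytes it was −1.38, −1.43, −2.92 and −2.43, lower in both libraries labelled striatum. Grin2a was at 150 CPM on average in these astrocytes, below microglia at 173 CPM and endothelial cells at 178 CPM. The part of neuronal RNA in this ratio was not tested.

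The remaining NMDA subunits were each prominent in few types. Grin2c was at 227, 224, 177 and 189 CPM in telencephalic astrocytes and at 110 and 106 CPM in non-telencephalic ones, then at 54.1 and 59.3 CPM in thalamic neurons, and these 3 did not overlap. Cerebellar granule neurons, in which Grin2c is known, had 180 and 144 CPM from 44 and 38 UMIs, under the minimum for the order of types. Grin2d was at 65.2 and 66.0 CPM in Vip interneurons, overlapping thalamic neurons at 53.7 and 67.6 CPM. Lamp5 or Ndnf interneurons had 64.3 and 86.5 CPM of Grin2d from 35 and 56 UMIs, under the same minimum and overlapping both. Grin2d stood at 49.5 and 48.5 CPM in Sst and 48.3 and 49.5 CPM in Pvalb interneurons against 9.29 and 9.09 CPM in layer 4/5 Rorb neurons. Grin3a, a glycine-binding subunit that lowers calcium entry, was at 910 and 840 CPM in Sst interneurons and at 466, 462, 569 and 512 CPM in oligodendrocyte precursors, with no overlap, and in layer 6 corticothalamic neurons it was at 20.5 and 19.5 CPM.

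Delta receptors hold synapses together through cerebellin ligands and conduct little or no current in response to glutamate. Grid1 was at 823 and 842 CPM in layer 6b or claustrum neurons and at 830, 732, 815 and 834 CPM in oligodendrocyte precursors, which overlapped.

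Group I metabotropic receptors couple to phospholipase C. Grm5 was at 3219, 3062, 3377 and 3037 CPM in D1 neurons and at 3033, 3095, 3347 and 3085 CPM in D2 neurons, ranges that coincided, and all 8 values lay above the next type, layer 5/6 near-projecting neurons at 1878 and 2030 CPM.

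Group II and III receptors inhibit adenylyl cyclase, often at axon terminals. Grm3 was highest in some glial types and pericytes, at 1299, 1359, 1235 and 1262 CPM in telencephalic astrocytes and at 903, 888, 1084 and 958 CPM in oligodendrocytes, with no overlap, and at 846, 728, 1008 and 904 CPM in pericytes, the contractile cells of capillaries. Non-telencephalic astrocytes had less, at 445 and 411 CPM, and oligodendrocyte precursors had 73.3, 69.9, 33.2 and 32.1 CPM. Among neurons, layer 5/6 near-projecting (528 and 495 CPM), D2 (430, 432, 669 and 515 CPM) and layer 4/5 Rorb neurons (531 and 484 CPM) overlapped, and the first and last of these lay above the non-telencephalic astrocytes. Grm2, its neuronal relative, was highest in hippocampal granule neurons at 60.1, 69.1, 43.0 and 40.8 CPM, with 33.3 and 39.6 CPM in layer 4/5 Rorb neurons. Neuroblasts had 53.8, 28.6 and 45.2 CPM of Grm2 from 13, 7 and 14 UMIs, too few for the order of types. Grm4 was at 416 and 443 CPM in cerebellar granule neurons, at 156 and 175 CPM in thalamic neurons and at 102, 99.3, 113 and 95.0 CPM in D1 neurons, and these 3 did not overlap. Grm7, found in many presynaptic active zones, was broad, with 2670 and 2646 CPM in thalamic neurons and 2634 and 2509 CPM in layer 4/5 Rorb neurons, which did not overlap, and 1949 CPM on average in its seventh type, layer 2/3 neurons. Grm8 was highest in layer 5/6 near-projecting neurons at 945 and 844 CPM, then in layer 6 corticothalamic neurons at 716 and 735 CPM.

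The alpha subunits of GABA-A receptors set the benzodiazepine response and the place of the receptor at the synapse. Gabra2 was at 574, 509, 654 and 589 CPM in hippocampal granule neurons, and Gabra3 was highest in Sst interneurons at 129 and 124 CPM, which overlapped subcortical glutamatergic neurons at 128 and 124 CPM. Gabra4, a subunit of extrasynaptic receptors, was at 520 and 501 CPM in thalamic neurons, above all values of the D2 (260, 281, 330 and 240 CPM) and D1 neurons (256, 263, 261 and 236 CPM), and at 23.0 and 23.8 CPM in habenula neurons. Gabra5 was highest in hippocampal granule neurons at 126, 127, 92.6 and 118 CPM. Gabra6 was at 441 and 405 CPM in cerebellar granule neurons, from 108 and 107 UMIs, and no other type had 100 UMIs of it.

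Beta subunits are needed for assembly and bind GABA together with alpha. Gabrb1 was highest in astrocytes, at 2037, 2012, 2528 and 2248 CPM in telencephalic and 2140 and 1964 CPM in non-telencephalic astrocytes, which overlapped, and the next type, thalamic neurons, had 1277 and 1243 CPM. Gabrb2 was highest in Lamp5 or Ndnf interneurons at 788 and 705 CPM and the next, thalamic neurons, had 554 and 524 CPM.

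The gamma subunits anchor receptors at synapses. Gabrg1 was at 102 and 114 CPM in non-telencephalic astrocytes and overlapped GABAergic neurons of other clusters (83.2, 108, 79.2 and 99.5 CPM) and telencephalic astrocytes (64.5, 69.5, 123 and 82.2 CPM). Gabrg3 was at 2670 CPM in the smaller group of striatal projection neurons, a single value, and at 2474 and 2140 CPM in Lamp5 or Ndnf interneurons. Among the remaining subunits Gabrd, which forms tonic extrasynaptic receptors with Gabra4 or Gabra6, was at 105, 125, 123 and 122 CPM in D2 neurons, 113, 120, 120 and 117 CPM in D1 neurons and 116 and 112 CPM in thalamic neurons, all overlapping, and at 9.78 and 9.43 CPM in subcortical glutamatergic neurons. Cerebellar granule neurons, which had Gabra6, had 171 and 106 CPM of Gabrd from 42 and 28 UMIs, too few for the order of types and with the highest mean. Gabrq was at 16.4 and 17.4 CPM in those subcortical neurons. The rho subunit Gabrr2 was at 17.4, 15.5, 22.9 and 20.9 CPM in oligodendrocytes, from 370 UMIs.

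GABA-B receptors are obligate pairs of Gabbr1 and Gabbr2. Both were highest in habenula neurons. Gabbr1 was at 1077 and 1145 CPM there, above non-telencephalic astrocytes at 402 and 399 CPM. Gabbr2 was at 1397 and 1641 CPM, above thalamic neurons at 1081 and 1137 CPM. After the habenula Gabbr1 was flat, with 403, 426, 343 and 408 CPM in telencephalic astrocytes and a median type of 277 CPM. Habenula neurons thus had the highest levels of both GABA-B genes and the highest Gria1 to Gria2 ratio, and the lowest mean level of Gabra4, 23.4 CPM.

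**Figure D3:**
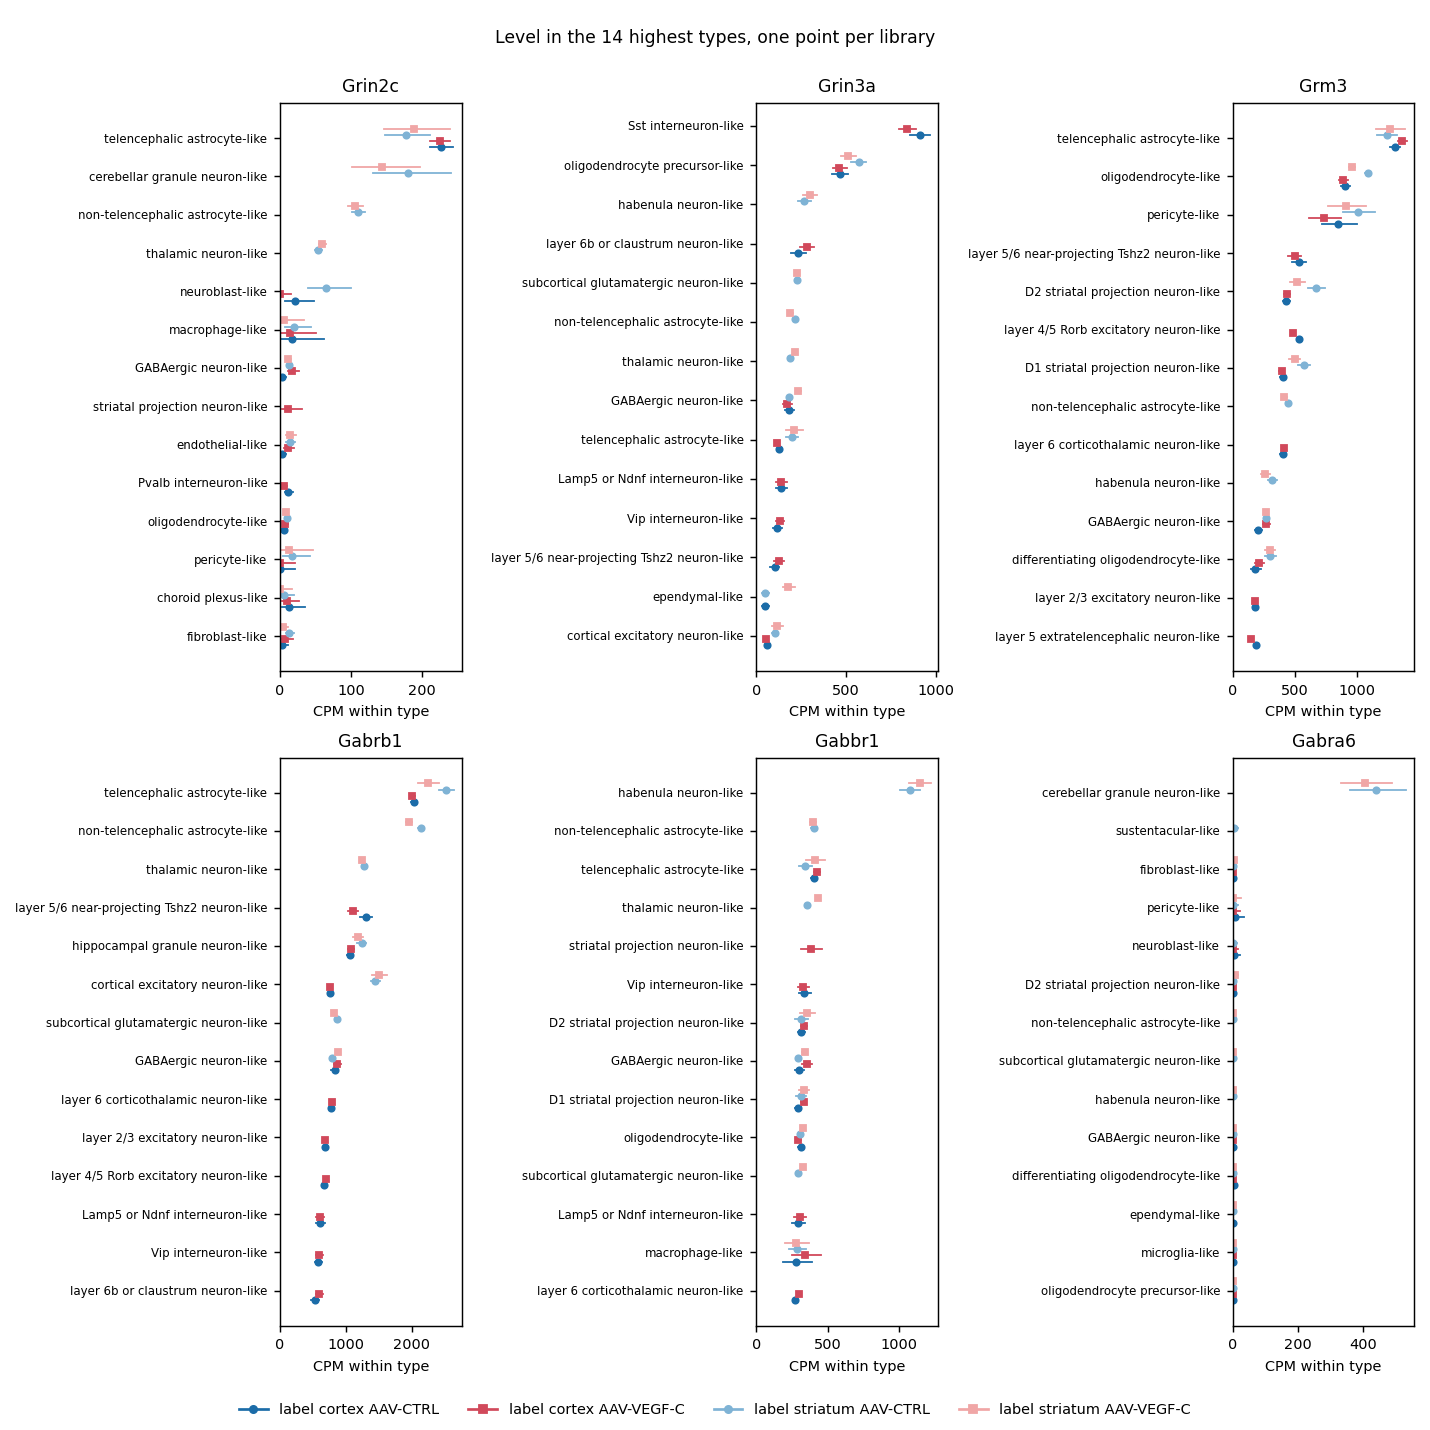
CPM within type (horizontal axes, from 0) of Grin2c, Grin3a, Grm3, Gabrb1, Gabbr1 and Gabra6 in the 14 types with the highest mean, with 1 point per library and exact 95% Poisson intervals as bars. Telencephalic astrocytes lead for Grm3, habenula neurons for Gabbr1, cerebellar granule neurons for Gabra6 and both astrocyte types for Gabrb1, while the libraries of ependymal cells lie far apart for Grin3a (48.4, 49.1 and 178 CPM).

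Summed over all receptor genes, D1 neurons had 19054, 18602, 19635 and 18378 CPM of glutamate receptor genes and microglia 3428, 3270, 2334 and 2112 CPM. The sum of GABA receptor genes was highest in Lamp5 or Ndnf interneurons, at 7166 and 6559 CPM. It was 4054, 3970, 4376 and 4130 CPM in telencephalic astrocytes, within the range of neurons such as layer 6b or claustrum neurons at 4049 and 4095 CPM. Gabrb1 gave 2037, 2012, 2528 and 2248 CPM of the sum in these astrocytes.

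Nuclei that are not neurons also gave UMIs of genes known from neurons. In microglia the sum of Snap25, Syt1 and Rbfox3, genes of the synapse and of neuronal nuclei, was 43.8% to 52.7% of the level in all neurons of the same library, and the median receptor gene stood at 18.8% to 33.3% of neurons. The 3 genes differed, since Snap25 alone was at 103% to 115% of neurons in microglia, Syt1 at 21.8% to 34.3% and Rbfox3 at 25.4% to 47.4%, and Gad2, an enzyme of GABA synthesis, was at 112% to 143%. Receptor levels in glia were therefore read against this level. A gene with 100 UMIs in a type was counted when its lowest library, as a percent of neurons, exceeded 3 times the highest share of the summed 3 neuronal genes in that type. This held for 18 pairs of a gene and a type out of 43 genes in 13 non-neuronal types. It held for none of the 43 genes in microglia, macrophages, endothelial cells, fibroblasts, choroid plexus or sustentacular cells. The same rule was not applied to all genes, so that these numbers cannot be called particular to receptor genes.

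In telencephalic astrocytes the pairs were Grin2c, Grm3, Gabrb1 and Gabrg1, and in non-telencephalic astrocytes the same 4 and Gria1. Grin2c in telencephalic astrocytes was 12.4 to 70.0 times its level in microglia or endothelial cells of the same library, Grm3 18.0 to 27.5 times and Gabrb1 11.5 to 14.9 times. Gabrg1 was lowest in this respect, at 2.83 to 4.45 times in non-telencephalic astrocytes. In oligodendrocytes the pairs were Grm3, at 12.5 to 24.1 times, and Gabrr2, at 4.26 to 11.2 times. Differentiating oligodendrocytes had Grik2 at 1558, 1349, 1554 and 1416 CPM, 9.87 to 13.7 times microglia or endothelial cells. The pairs of oligodendrocyte precursors included Grik4 (11.9 to 16.0 times), Grin3a (7.79 to 15.4 times) and Grid1 (10.1 to 15.4 times), of the kainate, NMDA and delta families. Pericytes had Grm3 at 10.4 to 22.4 times and ependymal cells, which line the ventricles, had Grik4 at 234, 267 and 200 CPM, 7.78 to 10.6 times. The 2 stages of this lineage differed. Grid1 was at 55.3 CPM in oligodendrocytes on average and at 803 CPM in their precursors, and Grm3 was at 958 CPM in oligodendrocytes and at 52.1 CPM in precursors.

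Some pairs missed the mark of 3 times and still stood well above microglia and endothelial cells. Grm7 in pericytes was at 1626, 1260, 1241 and 1288 CPM, 5.66 to 8.66 times those types. Grm8 in choroid plexus, the epithelium that makes cerebrospinal fluid, was at 404, 421, 458 and 296 CPM, 7.31 to 8.75 times. Gria4 in oligodendrocyte precursors was 4.98 to 7.10 times. These were picked from their values and are a description.

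Genes of GABA-A subunits lie in clusters on the chromosomes, and the pattern of levels over the 35 types was compared within them. On chromosome 5, Gabrg1, Gabra2, Gabra4 and Gabrb1 had Pearson's r between pairs of genes from −0.17 to 0.63 (log2 mean CPM, over 35 types), and on chromosome X Gabra3 and Gabrq had r of 0.05. The median over all 741 pairs of the 39 receptor genes with 1000 UMIs was 0.35. The pairs on chromosomes 5 and X thus lay on both sides of the median pair. Other GABA-A clusters are not reported here, so that these values do not describe clustered genes at large. Types share libraries and depth, and the starts of Gabra4 and Gabrb1 overlap on opposite strands, while the use of strand in counting is not stated. Gria2 and Grik5, on different chromosomes, had one of the highest values (r = 0.90 and Spearman's rho = 0.86 over 35 types).

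AAV labels were compared within each type that had 100 nuclei in both libraries, for genes with 100 UMIs over both. A pair of a gene and a type was called when AAV-VEGF-C and AAV-CTRL differed by more than 0.58 on the log2 scale, the fold used in the study's methods. Under the label cortex, 9 of 674 receptor pairs were called, 3 higher and 6 lower under AAV-VEGF-C, which is 1.34% beside 2.31% of 136166 pairs over all genes. Under the label striatum, 20 of 503 were called, 9 higher and 11 lower, which is 3.98% beside 3.23% of 99752. The counting interval left out 0 in 9 of the 9 calls and in 19 of the 20. The median log2 ratio of the receptor pairs was −0.03 under the label cortex and −0.06 under the label striatum, against 0.01 and 0.00 over all genes.

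The called receptor genes under the label cortex came from 8 types. The largest difference was Gria1 in neuroblasts, at 571 CPM under AAV-VEGF-C and 1187 CPM under AAV-CTRL (log2 −1.06, 95% counting interval −1.36 to −0.76, 137 and 131 nuclei). Neuroblasts of the library labelled striatum AAV-CTRL had 2640 CPM of Gria1, and the median log2 of the 15 receptor genes with a value in neuroblasts was −0.31. Kainate subunits made up 4 of the 9 calls and 91 of the 674 pairs. Of their pairs 4.40% were called, beside 2.31% over all genes, and the family was picked out after the calls were seen. Grik1 was at 15.9 and 30.0 CPM in D2 neurons (AAV-VEGF-C first here, log2 −0.91) and Grik3 at 12.2 and 22.1 CPM in D1 neurons (log2 −0.86). They rested on 48 and 65 UMIs for Grik1 and 46 and 64 UMIs for Grik3. Grik4 was at 97.0 and 153 CPM in layer 5 extratelencephalic neurons (log2 −0.65), and Grik3 at 22.4 and 14.7 CPM in layer 2/3 neurons (log2 0.61). The other calls were Grin2d in layer 2/3 neurons (log2 0.63), Gabrg3 in microglia (0.61, with −0.55 under the label striatum), Grm3 in fibroblasts (−0.70) and Gabra5 in GABAergic neurons of other clusters (−0.60). Gabrg3 averaged 72.6 CPM in microglia and 71.7 CPM in endothelial cells, and the part of neuronal RNA in its ratio was not tested.

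Under the label striatum the largest difference was Grin3a in ependymal cells, at 178 CPM (123 UMIs, 101 nuclei) under AAV-VEGF-C and 49.1 CPM (34 UMIs, 178 nuclei) under AAV-CTRL, a log2 ratio of 1.86 with an interval of 1.30 to 2.45. Ependymal cells of the library labelled cortex AAV-CTRL had 48.4 CPM. The type had 5 of its 21 receptor genes called, 4 higher and 1 lower, which is 23.8% beside 4.83% of all 3310 genes in that type. Habenula neurons had 4 of 27 called, which is 14.8% beside 5.20% of all 3462 genes. Among them were Grik2 at 303 CPM under AAV-VEGF-C and 594 CPM under AAV-CTRL (log2 −0.97) and Grik1 at 45.0 and 86.0 CPM (−0.93). They came from 181 and 199 nuclei, and no library labelled cortex held enough habenula nuclei to set beside them. Other large differences were Gabrb1 in cerebellar granule neurons (−0.93), Grm3 in fibroblasts (−0.91), Gabrq in GABAergic neurons (0.82), Grm7 in microglia (−0.81, with −0.02 under the label cortex), Gabra5 in oligodendrocytes (−0.77, with −0.08) and Grm8 in hippocampal granule neurons (0.72, with 0.04). Grm7 averaged 178 CPM in microglia and 182 CPM in endothelial cells. Gabra5 averaged 26.5 CPM in oligodendrocytes and 35.2 CPM in endothelial cells. The part of neuronal RNA in these non-neuronal ratios was not tested.

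**Figure D4:**
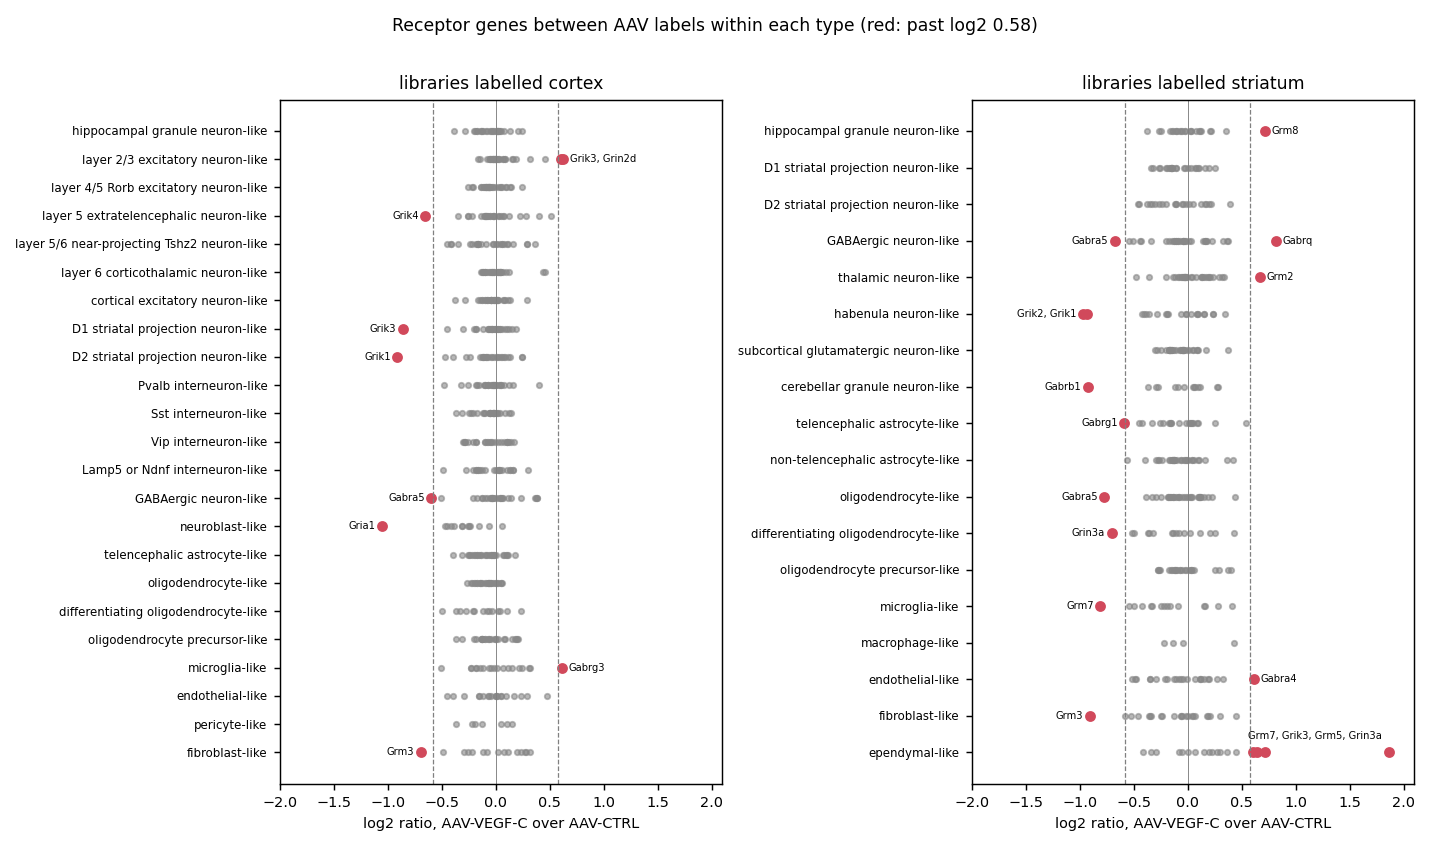
Log2 ratio of AAV-VEGF-C over AAV-CTRL (horizontal axes) for each receptor gene with 100 UMIs in each type (vertical axes), in the libraries labelled cortex (left) and striatum (right). Red points with names are past an absolute log2 ratio of 0.58 (dashed lines), 9 on the left and 17 on the right among the genes drawn, with Grin3a in ependymal cells farthest to the right.

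Both region labels allowed a value for 288 pairs, of which 3 were called under the label cortex and 6 under the label striatum. In 2 pairs both were called and in the same direction, and in 0 in opposite directions. The same overlap over all genes was not counted. Grm3 in fibroblasts was at 110 and 68.0 CPM under the label cortex and at 71.5 and 38.1 CPM under the label striatum (AAV-CTRL first, log2 −0.70 and −0.91), from 39 to 131 UMIs per library. Its mean in fibroblasts, 72.0 CPM, was near that in endothelial cells (59.7 CPM) and microglia (52.0 CPM). Fibroblasts had 0 of 43 receptor genes past 3 times the share of the neuronal genes, and the part of neuronal RNA in this ratio was not tested. Gabra5 in GABAergic neurons was at 63.2 and 41.8 CPM and at 74.6 and 46.7 CPM (log2 −0.60 and −0.68). The 2 region labels of an AAV label came from the same pooled mice, and the clusters behind GABAergic neurons differed: 1 cluster had 301 nuclei in the library labelled striatum AAV-CTRL and 2 in the one labelled striatum AAV-VEGF-C. Without the clusters of 1 library, 19 receptor pairs over all types were called under the label striatum, against 20 with them. This count is given without the share over all genes, and it does not show whether the Gabra5 ratio held. Of the partner genes, 8 of 800 pairs were called under the label cortex, which is 1.00% beside 2.31% over all genes. Under the label striatum 8 of 531 were called, which is 1.51% beside 3.23%. The 8 under the label cortex included 3 pairs of GABA-B auxiliary genes, all higher under AAV-VEGF-C. They were Kctd12 in D2 neurons (log2 0.73) and Vip interneurons (0.67) and Kctd8 in layer 5 extratelencephalic neurons (0.68). Under the label striatum 0 of 32 pairs of these auxiliary genes were called.

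Region labels were compared in the same way, once under each AAV label. The 2 comparisons share no library and no mice. Under AAV-CTRL, 108 of 395 receptor pairs were called, 49 higher and 59 lower in the library labelled striatum, which is 27.3% beside 14.8% of 77246 pairs over all genes. Under AAV-VEGF-C, 81 of 325 were called, 28 higher and 53 lower, which is 24.9% beside 13.7% of 66973. Both comparisons allowed a value for 319 pairs, of which 77 and 78 were called, 56 of them in both and in the same direction and 0 in opposite directions. This overlap was not counted over all genes, so that it cannot be called particular to receptor genes. With size factors by the median of ratios in place of CPM, the split was 43 higher and 66 lower under AAV-CTRL and 24 and 61 under AAV-VEGF-C.

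Neurons and other cells parted in these comparisons. In neuron types 36 of 191 pairs were called under AAV-CTRL and 9 of 131 under AAV-VEGF-C, and in non-neuronal types 72 of 204 and 72 of 194. The shares were 18.8% and 6.87% in neuron types, beside 14.8% and 10.4% of the pairs over all genes there, and 35.3% and 37.1% in non-neuronal types, beside 14.7% and 15.9%. Under AAV-CTRL cortical excitatory neurons of other clusters held 14 of the 36 and neuroblasts 12, and both had too few nuclei for a value under AAV-VEGF-C. These were also the neuron types with the most calls over all genes, 23.2% and 31.1%. Without them 10 of 133 receptor pairs in neuron types were called under AAV-CTRL, which is 7.52% beside 10.5% over all genes. The cortical excitatory class was made of different clusters under the 2 labels: of its 210 nuclei in the library labelled striatum AAV-CTRL, 117 belonged to a cluster led by Spink8 and Fibcd1, and under the label cortex 1785 and 1968 nuclei belonged to a cluster led by Nrgn, Tbr1 and Egr1.

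Grin3a and Grm8 were past the threshold in neurons under both AAV labels. Grin3a in D1 neurons was at 19.7 and 21.5 CPM under the label cortex and at 47.7 and 56.8 CPM under the label striatum (log2 1.28 and 1.40), and in hippocampal granule neurons at 35.8 and 37.7 CPM against 103 and 85.8 CPM (1.53 and 1.19). Grm8 was lower under the label striatum, at 258 and 226 CPM against 114 and 101 CPM in D1 neurons (−1.17 and −1.16) and at 161 and 145 CPM against 61.6 and 70.9 CPM in D2 neurons (−1.38 and −1.03). In each of these the 2 libraries of one label lay on the same side of both libraries of the other. Grin3a was also higher under the label striatum in the sum of all neurons, by log2 1.41 and 1.59, while Grm8 was at 0.28 and 0.10. Microglia and endothelial cells averaged 46.7 and 46.7 CPM of Grin3a, within the range of the D1 and of the hippocampal granule values. The part of RNA from other cells in these Grin3a ratios was not tested.

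The D1 class was made of clusters in different shares under the 2 labels. A cluster led by Drd3 and Impg1 held 12.8% and 11.1% of D1 nuclei under the label cortex and 40.8% and 34.6% under the label striatum, and a cluster led by Sh3rf2 held 55.1% and 62.2% against 30.5% and 34.6%. In the first, Grin3a was at 65.7 and 90.3 CPM under the label cortex and 76.4 and 109 CPM under the label striatum, and Grm8 at 36.8 and 63.4 CPM against 20.2 and 53.2 CPM, and the labels overlapped for both genes. In the second, Grin3a was at 6.56 and 12.9 CPM against 22.5 and 17.7 CPM, from 6 to 31 UMIs per library, and Grm8 at 317 and 253 CPM against 200 and 174 CPM, with no overlap. For both genes the labels thus overlapped in the first cluster and parted in the second. The other D1 clusters held fewer than 50 nuclei in each library labelled striatum. The part of cluster makeup in the D1 ratios was not tested. D2 neurons had no cluster with 50 nuclei in a library labelled striatum, and hippocampal granule neurons were a single cluster.

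In non-neuronal types the differences had mostly the direction of the neurons of the same libraries. Of the 72 calls, 68 under each AAV label had the direction of the summed neurons, whose own log2 ratio was −1.24 and −1.27 for Grin2a, −0.76 and −0.69 for Grin2b and −0.66 and −0.82 for Gria3. Over receptor genes the ratio in microglia had Pearson's r of 0.89 and 0.93 with the ratio in neurons (20 and 22 genes, a description across genes), in endothelial cells 0.90 and 0.86 and in telencephalic astrocytes 0.60 and 0.54, while in pericytes it was 0.07 over 7 genes under AAV-CTRL. Grin2a was the clearest case. It was at 265, 267, 68.1 and 90.7 CPM in microglia and at 270, 253, 82.1 and 83.8 CPM in oligodendrocytes, with both libraries labelled cortex above both labelled striatum in each. Oligodendrocytes formed 2 clusters, one mostly from each region label, and Grin2a differed by label within each. In the first it was at 203 and 191 CPM under the label cortex and 82.1 and 83.6 CPM under the label striatum, and in the second at 274 and 256 CPM under the label cortex and 84.5 CPM in the library labelled striatum AAV-CTRL (7 UMIs). Grin2a stood at 7.75% to 16.1% of neurons in microglia and at 9.35% to 15.2% in oligodendrocytes, under the share of the neuronal genes there, and the part of neuronal RNA in these ratios was not tested.

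Other large non-neuronal differences were Gabrg1 in oligodendrocytes at 6.53, 5.06, 22.8 and 19.2 CPM (log2 1.80 and 1.92) and Gria3 in microglia (−1.46 and −1.48). The neurons of the libraries labelled striatum also had more Gabrg1, by log2 2.41 and 2.64. Grm3, which stood above the neuronal share in astrocytes, is an example without such a difference. Grm3 in telencephalic astrocytes was at 1299, 1359, 1235 and 1262 CPM, while Grm3 of all neurons was at log2 −0.70 and −0.78.

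**Figure D5:**
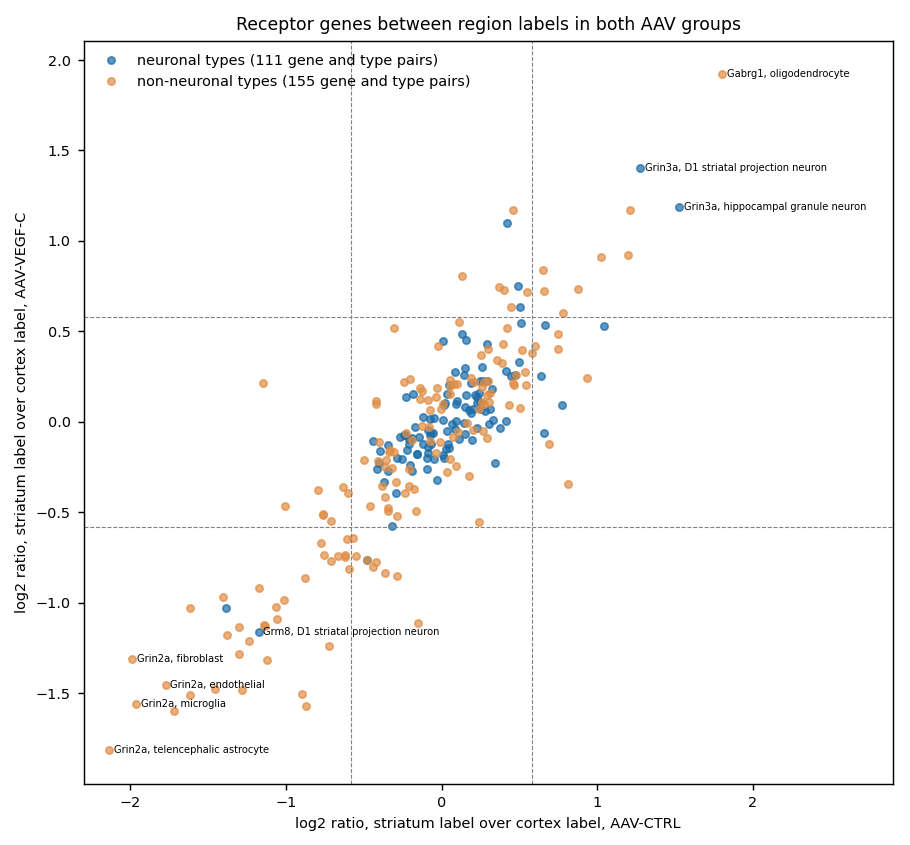
Log2 ratio of the library labelled striatum over that labelled cortex for each receptor gene and type, under AAV-CTRL (horizontal axis) and AAV-VEGF-C (vertical axis), with neuronal types in blue (111 pairs drawn) and other types in orange (155 pairs drawn) and the threshold of 0.58 as dashed lines. Of these pairs 45 are past it in both, all in the lower left or upper right corner, and Grin2a in non-neuronal types lies at the lower left end.

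Partner genes behaved alike in number. Under AAV-CTRL 131 of 439 of their pairs were called (29.8% beside 14.8% over all genes), 29 higher and 102 lower under the label striatum. Under AAV-VEGF-C 103 of 376 were called (27.4% beside 13.7%), 14 higher and 89 lower. Over all genes the calls were 5154 higher and 6261 lower under AAV-CTRL and 4096 and 5073 under AAV-VEGF-C. The scaffold list with Dlg, Dlgap, Shank and Homer genes had 41 lower and 5 higher of 146 and 37 lower and 0 higher of 129, and the list of AMPA receptor auxiliary genes 43 lower and 9 higher of 136 and 35 lower and 4 higher of 111. Adarb1, the enzyme that edits the Gria2 transcript, went the other way, with 5 of 11 and 4 of 10 types called and all of them higher. All these partner counts pool neuronal and non-neuronal types, and the part of neuronal RNA in the latter was not tested. Among the receptor genes the lower calls thus outnumbered the higher less than among their partners.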

How the data were processed

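The deposited values are UMI counts per gene and nucleus, which the authors made from 10x 3′ reads with Cell Ranger (5.0.1 in the file headers, 5.1.1 in the submitters' processing notes, build mm10). The annotation and the use of introns and strand in counting are not given in the sources used here. Each library is 1 group, so no test between groups was made. The members and gene lists were chosen with earlier results of these data known.

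Doublets were scored per library at an expected rate of 8% (4.12% to 8.03% called), and clusters with 40% or more called doublets were left out with them, 5670 nuclei in all. After scaling of each nucleus to 10000 and a log transform, nuclei were clustered on 5000 variable genes without the receptor genes (50 components, 15 neighbours, Leiden resolution 1.2, neurons again at 0.8). Clusters were named from at least 3 markers. The naming rule was set after the clusters were seen. Nuclei called mixed, unnamed, red blood cell or unresolved neuron had no level. Levels are CPM in types with 50 nuclei in a library, with exact Poisson intervals. Ratios needed 100 nuclei in each library and 100 UMIs over both, with exact conditional binomial intervals (95%, counting error only). A call was an absolute log2 ratio over 0.58. Genes named for a contrast were the called pairs, at most the 10 largest, and those shared by both labels, and other values in the text, such as Grm7 in pericytes, were chosen after they were seen. The interval and call steps were tested on simulated data. Tools were scanpy 1.11.5, leidenalg 0.10.2, scikit-learn 1.9.0, scipy 1.17.1 and numpy 2.4.6. Alternatives were other filters, folds, resolution, thinning and scaling. Some receptor genes are not reported here one by one or drawn, and stay in the counts.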

Additional observations from a re-analysis of the deposited data

How the results depend on the processing

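The count of receptor pairs called moved with the UMI minimum and the fold. With at least 30 UMIs over both libraries it was 35 between AAV labels under the label cortex, 50 under the label striatum and 128 between region labels under AAV-VEGF-C. With no minimum beyond 1 UMI in each library the AAV counts were 100 and 120. With an absolute log2 ratio over 1 they were 1 and 1 between AAV labels and 49 and 37 between region labels. With the receptor genes allowed among the variable genes the count under the label cortex was 5. With neuronal types only, an alternative chosen after seeing the data, the region counts were 36 and 9. The other alternatives kept each count within 1.5 times. These counts are given here without the share over all genes, and a lower minimum adds pairs with few UMIs for any gene. They describe the call rule and are not a result about receptor genes. Of 242 recomputed values of 39 named ratios, 238 stayed within their counting interval, 4 moved outside it and 0 reversed. Ratios without a value in a setting were skipped, and with thinned nuclei 19 stayed and 1 moved. Most settings used nearly the same nuclei and UMIs again, so that these values are not a repeat. Depth limits the ratios of genes with few UMIs. The region labels of an AAV label share their mice, so that each region ratio is within pooled mice, and no model over both AAV labels was fitted.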
